A study of Mus musculus with 16 samples.

Results

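The tubulin genes considered here are the rows of the authors' contralesional table, that is, of the cortex opposite the lesion, whose symbol starts with Tuba, Tubb or Tubg followed by a digit. There are 4 such rows among 417 in that table and 680 in both tables of the series: the alpha-tubulin gene Tuba1b and the beta-tubulin genes Tubb2a, Tubb2b and Tubb4b. The ipsilesional table, of the cortex on the side of the lesion, held 0 of them in 263 rows. The GENCODE annotation names 17 protein-coding genes under the same symbol rule, 7 of them Tuba, 8 Tubb and 2 Tubg, and the other 13 are not analysed here. The rule by which genes entered the table is not stated. Its largest unadjusted limma p was 0.156 and its smallest difference between group means 0.12 on the log2 scale, so the tubulin genes stand in a table already narrowed to genes that differ between these libraries.

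The libraries held RNA of the contralesional primary motor cortex. They came from 8 stroke mice of the strain C57Bl6, whose movement was scored on a horizontal rotating beam. By their labels, 3 had recovered spontaneously (animals 6, 23 and 28) and 5 had not recovered (animals 17, 19, 20, 21 and 29). All 8 had a stroke, and each contralesional library came from a separate animal. The sources used here give neither the stroke method, the interval to tissue collection, age nor sex. In bulk tissue, fewer cells of a type and less RNA per cell cannot be told apart.

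Tubulin is the building block of microtubules. An alpha and a beta subunit bind each other, and the resulting dimers stack into the wall of the tube, while gamma-tubulin seeds new microtubules. Neurons depend on microtubules for the shape of axons and dendrites and for transport along them. Mammals make several near-identical alpha and beta forms from separate genes, and these differ mostly in the acidic tail at the end of the protein.

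All members are short, multi-exon genes on the minus strand. On mm10, Tuba1b lay on chromosome 15 from 98931425 to 98934565 and Tubb4b on chromosome 2 from 25222160 to 25224702. Tubb2a (34074274 to 34078007) and Tubb2b (34126748 to 34130466) were neighbours on chromosome 13, 48740 nt apart. The principal transcript of each had 4 exons, and the coding sequences of Tubb2a and Tubb2b were 96.5% identical over 1335 nt. Tubb4b was 83.7% identical to Tubb2a, and Tuba1b was 57.6% identical to Tubb2a. The last 75 coding bases of the 3 beta-tubulin genes are shown because they encode the acidic tail. They are positions 1261 to 1335 of the coding sequence before the stop codon (GENCODE M21 transcripts, 5′ to 3′). Capitals mark the 16 positions that are not the same in all 3.
Tubb2a: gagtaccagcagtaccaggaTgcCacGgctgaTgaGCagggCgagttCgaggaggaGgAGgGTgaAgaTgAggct
Tubb2b: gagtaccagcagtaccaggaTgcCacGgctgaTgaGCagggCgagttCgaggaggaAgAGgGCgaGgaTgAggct
Tubb4b: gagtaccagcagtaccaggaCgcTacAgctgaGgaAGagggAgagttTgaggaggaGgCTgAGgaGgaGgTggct
Over this stretch Tubb2b differed from Tubb2a at 3 positions, none of which changes the encoded amino acid. Tubb4b differed from Tubb2a at 15.

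This likeness limits how firmly reads can be given to a gene. Of all 50-nt stretches of the Tubb2a transcript, 45.6% also stood in Tubb2b, and 33.4% of those of Tubb2b stood in Tubb2a. For Tuba1b, 73.8% of 50-nt stretches occurred in the transcript of another annotated gene, above all Tuba1c (59.3%), and 69.5% of 100-nt stretches still did. For Tubb4b the shares were 50.9% and 29.2%, most of it in the pseudogene Tubb4b-ps1 (43.6% and 27.4%). Tuba1b also shared 426 exonic nt with the same-strand gene Gm49450. It overlapped 87 exonic nt of the antisense gene Gm41396, and Tubb4b overlapped 121 nt of the opposite-strand gene Fam166a. The library kit was stranded, but the sources used here name neither the read length, the counter, its strand setting nor its treatment of reads with several matches. The split between Tubb2a and Tubb2b, and the levels of Tuba1b and Tubb4b, are therefore uncertain.

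**Figure D1:**
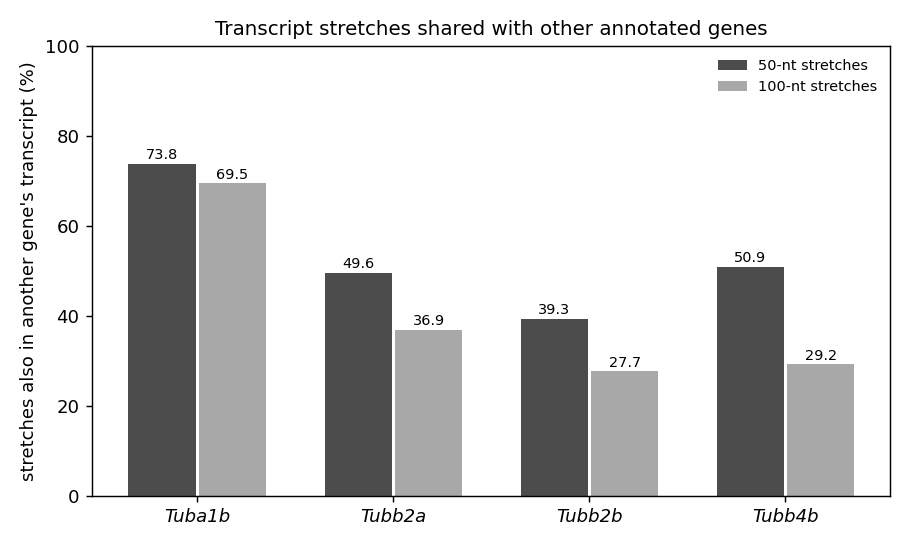
Bars give, for each tubulin gene, the share (%) of all 50-nt and 100-nt stretches of its principal transcript that also occur in the transcript of another annotated gene. Tuba1b has the largest share at both lengths, 73.8% and 69.5%, and Tubb2b the smallest, 39.3% and 27.7%.

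The upstream sequences of members with a RefSeq promoter entry (3 of 4, GRCm38.p6, 250 bases before to 50 after the start) were searched on both strands for the TATA-box letters TATAAA, for the CCAAT box and for the GC-box letters GGGCGG. No matches overlapped in these promoters. The promoters of Tubb2a and Tubb4b are shown because they differ in motif content. Capitals mark the matches. The sequences run 5′ to 3′ on the minus strand, at chr13:34077959-34078258 and chr2:25224653-25224952.
Tubb2a: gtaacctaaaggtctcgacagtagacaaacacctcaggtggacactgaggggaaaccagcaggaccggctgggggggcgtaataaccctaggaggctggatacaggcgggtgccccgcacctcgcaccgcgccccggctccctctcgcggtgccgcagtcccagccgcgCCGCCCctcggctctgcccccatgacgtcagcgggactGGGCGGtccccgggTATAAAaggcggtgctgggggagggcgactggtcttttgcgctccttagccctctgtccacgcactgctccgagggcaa
Tubb4b: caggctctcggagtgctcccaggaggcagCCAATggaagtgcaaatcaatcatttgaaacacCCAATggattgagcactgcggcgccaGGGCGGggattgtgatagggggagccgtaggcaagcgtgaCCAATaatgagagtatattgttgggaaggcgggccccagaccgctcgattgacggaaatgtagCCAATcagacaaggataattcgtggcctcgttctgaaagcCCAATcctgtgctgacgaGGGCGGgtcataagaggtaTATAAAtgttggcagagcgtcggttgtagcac
The Tubb2a promoter held 1 TATAAA, starting 29 bases before the start (-29), and 2 GGGCGG. That of Tubb4b held 5 CCAAT, 2 GGGCGG and 1 TATAAA, the last lying after the start. The Tuba1b promoter held 2 GGGCGG and neither of the other motifs. Of 32851 promoters of this length, 13.6% held TATAAA, 37.4% CCAAT and 35.7% GGGCGG. The Tuba1b promoter had 39 CpG dinucleotides, that of Tubb2a 25 and that of Tubb4b 16, against a median of 7 over all promoters.

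The comparison asked whether tubulin messages opposite the lesion differed between animals that recovered and animals that did not. All 4 members had a higher mean in recovered animals, by 1.10-fold to 1.19-fold, in a table where 147 of 417 genes (35.3%) did. None passed the test across the table: 0 of 4 had a limma adjusted p under 0.05 (Benjamini-Hochberg over the 417 genes), against 33 of 417 listed genes (7.91%), of which 8 (1.92%) were higher in recovered animals. At an unadjusted limma p under 0.05 there was 1 member, Tubb2a, which was higher in recovered animals. Of all listed genes, 73.4% were under that limit, and 25.7% were under it and higher in recovered animals. With voom, which weights values by their read number, 0 members and 0 listed genes passed after adjustment. At an unadjusted voom p under 0.05 there were 3 members, against 85.4% of listed genes in either direction and 30% higher in recovered animals. Scaling each library by the median ratio of listed genes put 2 members, Tubb2a and Tubb4b, past the adjusted threshold. The same scaling put 36.9% of listed genes past it, 31.2% being higher in recovered animals, and moved the median of all listed genes by 0.11 on the log2 scale. It takes the listed genes as mostly unchanged, but the table was narrowed to genes that differ, 270 of 417 being lower in recovered animals. The 2 calls therefore cannot be told apart from that shift. With the authors' scaling, the median log2 fold change was 0.18 over the 4 members and -0.19 over all listed genes. Over the 147 listed genes higher in recovered animals it was 0.25. Values are log2 CPM (counts per 1000000 reads) as the authors deposited them, and a log2 fold change is recovered minus non-recovered.

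Tubb2a encodes a class II beta-tubulin that is abundant in brain. Its level was 7.96, 8.08 and 8.07 log2 CPM in recovered animals 6, 23 and 28, against 7.69, 7.93, 7.76, 7.92 and 7.89 log2 CPM in non-recovered animals 17, 19, 20, 21 and 29. Each recovered library lay above each non-recovered one, so the groups did not overlap. Among listed genes, 17.7% had recovered libraries wholly above the non-recovered ones and 43.2% had no overlap in either direction. The means were 8.04 ± 0.07 (SD, n = 3) in recovered and 7.84 ± 0.11 (SD, n = 5) in non-recovered animals. The log2 fold change was 0.20 ± 0.08 (SE), with a limma adjusted p of 0.0590 and an exact permutation p of 0.0357 (2-sided). With 3 against 5 animals there are 56 splits and the smallest exact p is 0.0179. The gap between groups was narrow: recovered animal 6 stood at 249 CPM (95% Poisson interval 243 to 256) and non-recovered animal 19 at 243 CPM (237 to 249). These intervals cover counting error only. The unadjusted limma p, 0.0294, exceeded 0.05 without animal 17 (0.0581), 20 (0.0672), 23 (0.0791) or 28 (0.0838). It was also 0.186 after quantile normalization, where the log2 fold change was 0.12. With each library's trend on exonic length (all annotated exon bases) removed, it was 0.500.

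Tubb2b encodes the other class II form, which is known in humans for its role in the migration of cortical neurons during development. It had 5.96, 6.44 and 5.98 log2 CPM in recovered animals 6, 23 and 28, against 6.03, 5.73, 5.76, 5.87 and 5.97 log2 CPM in non-recovered animals 17, 19, 20, 21 and 29. Only animal 23 lay above the highest non-recovered library, and the other recovered libraries lay within the non-recovered range. The log2 fold change was 0.26 ± 0.12 (SE; limma adjusted p = 0.0797, exact permutation p = 0.107). It was the largest of the 4 and the least even, with an SD of 0.27 in recovered (n = 3) and 0.13 in non-recovered animals (n = 5). Without animal 23 it was 0.10, with a limma adjusted p of 0.350. Without animal 6 it was 0.34, with a limma adjusted p of 0.0695. Without animal 28 it was 0.33, with a limma adjusted p of 0.0892. The unadjusted limma p was 0.0393 without animal 6 and 0.0462 without animal 28, against 0.0697 with all libraries. In those fits, 272 and 221 of 417 listed genes were under 0.05 before adjustment. After quantile normalization it was 0.37, with a limma adjusted p of 0.0803. The unadjusted limma p was then 0.0281, and 185 of 417 listed genes were under 0.05 before adjustment.

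Tuba1b encodes an alpha-tubulin made in most cell types. It stood at 7.26, 7.64 and 7.34 log2 CPM in recovered animals 6, 23 and 28, against 7.24, 7.27, 7.23, 7.29 and 7.26 log2 CPM in non-recovered animals 17, 19, 20, 21 and 29. The non-recovered libraries were close together (SD 0.03, n = 5), animal 6 lay among them, and animal 23 stood well above all the others. The log2 fold change was 0.15 ± 0.09 (SE; limma adjusted p = 0.113, exact permutation p = 0.0714). Without animal 23 it was 0.04, with a limma adjusted p of 0.516. Without animal 6 it was 0.23, with a limma adjusted p of 0.0612. The unadjusted limma p was then 0.0300, against 0.112 with all libraries. In the fit without animal 6, 272 of 417 listed genes were under 0.05 before adjustment.

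Tubb4b encodes a broadly expressed beta-tubulin that is also a component of cilia. Its values were 7.70, 7.84 and 7.68 log2 CPM in recovered animals 6, 23 and 28, against 7.50, 7.71, 7.56, 7.64 and 7.60 log2 CPM in non-recovered animals 17, 19, 20, 21 and 29. Non-recovered animal 19 exceeded recovered animals 6 and 28, so the groups overlapped. The log2 fold change was 0.14 ± 0.07 (SE; limma adjusted p = 0.0912, exact permutation p = 0.0893), and without animal 23 it was 0.09. Among the 147 genes higher in recovered animals, Tubb4b was number 141 by fold change, Tuba1b 133, Tubb2a 98 and Tubb2b 72. The smallest difference listed in either direction was 0.12, so Tubb4b and Tuba1b lay near the lower edge of what the table holds.

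**Figure D2:**
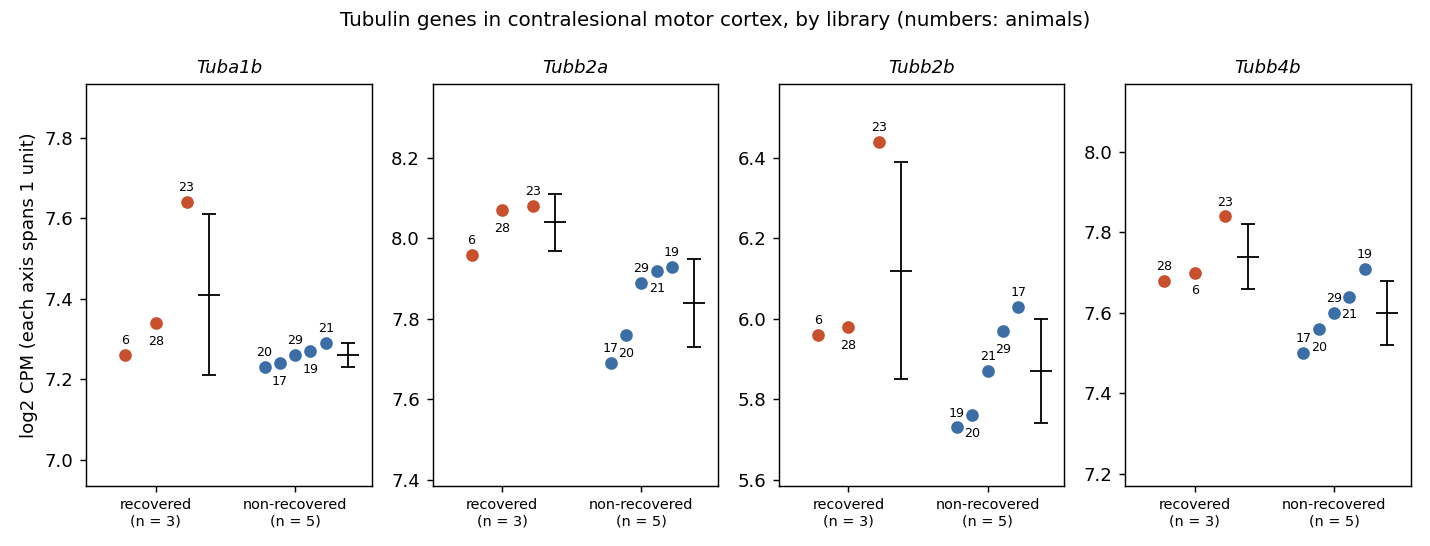
Each panel shows 1 tubulin gene, with log2 CPM on the vertical axis and a point per contralesional library, labelled by animal number, with recovered left of non-recovered animals. Bars give the group mean ± SD (n = 3 and n = 5). Animal 23 is the highest library in all 4 panels, and the groups separate in Tubb2a alone (7.96 to 8.08 against 7.69 to 7.93).

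Counting error was smaller than the spread between animals, except for Tuba1b in non-recovered animals. Members had 1131 (Tubb2b) to 6929 (Tubb2a) reads per library, which gives a Poisson coefficient of variation of 1.2 to 2.97%. Between recovered animals the coefficient of variation of CPM was 19.8% for Tubb2b, 14.2% for Tuba1b, 5.83% for Tubb4b and 4.46% for Tubb2a. Between non-recovered animals the coefficient of variation of CPM was 9.05% for Tubb2b, 7.28% for Tubb2a and 5.44% for Tubb4b. For Tuba1b in non-recovered animals it was 1.75%, within its Poisson range of 1.4 to 1.85%.

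Per length of the principal transcript, Tubb2a had the highest counted level of the 4. It was 163 ± 7.28 CPM per kb in recovered (SD, n = 3) and 142 ± 10.4 in non-recovered animals (SD, n = 5). Tubb4b followed with 134 ± 7.81 and 122 ± 6.62 CPM per kb in the same groups. Tuba1b had 98.3 ± 14.0 and 87.8 ± 1.54, and Tubb2b 32.3 ± 6.4 and 26.8 ± 2.43. This order held in 8 of 8 libraries, although the ranges over libraries overlapped between Tubb2a and Tubb4b and between Tubb4b and Tuba1b. Another gene held 73.8% of the 50-nt stretches of Tuba1b, against 49.6% of those of Tubb2a. The treatment of reads with several matches is not known, so the order of the transcripts may differ from that of the counted reads. Summed over the 4 genes, the level was 672, 785 and 699 CPM in recovered animals 6, 23 and 28, against 603, 659, 609, 657 and 647 CPM in non-recovered animals 17, 19, 20, 21 and 29. Recovered animals thus had 719 ± 58.8 CPM (SD, n = 3) and non-recovered animals 635 ± 26.7 CPM (SD, n = 5), and the lowest recovered library exceeded the highest non-recovered one. Of single listed genes, 147 of 417 had a higher mean in recovered animals, and 74 (17.7%) had recovered libraries wholly above the non-recovered ones. No such share was computed for sums of 4 genes. Tubb2a, the largest term of the sum, is among those 74 genes, so the separation of the sum is not independent of it.

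The library of recovered animal 23 stood apart in the table as a whole. It was the highest or the lowest of the 8 libraries for 54.7% of listed genes, against 20.9% and 24.2% for recovered animals 6 and 28 and 14.4 to 25.9% for non-recovered animals. It was highest for 81 and lowest for 147 listed genes, and highest for 4 of 4 tubulin genes. Its description code alone begins with SP2, those of the other contralesional libraries with SP4. The labels do not say what the code stands for, and its description code and animal number are paired differently in the ipsilesional samples, where SP2 belongs to animal 6. Within SP4, the codes of non-recovered animals 19, 20 and 21 share their second field, and so do those of recovered animal 28 and non-recovered animal 29. Of these last animals, recovered animal 28 had 8.07 log2 CPM of Tubb2a, 7.34 of Tuba1b, 7.68 of Tubb4b and 5.98 of Tubb2b, against 7.89, 7.26, 7.60 and 5.97 log2 CPM of the same genes in non-recovered animal 29. This is a single pair with no replicate check. Without the library of animal 23, which leaves SP4 codes only, the median log2 fold change of the members was 0.09, and their limma adjusted p ranged from 0.154 to 0.516. At an unadjusted limma p under 0.05 there were then 0 of 4 members, against 38.1% of listed genes in either direction and 12.2% higher in recovered animals. All 4 means remained higher in recovered animals.

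**Figure D3:**
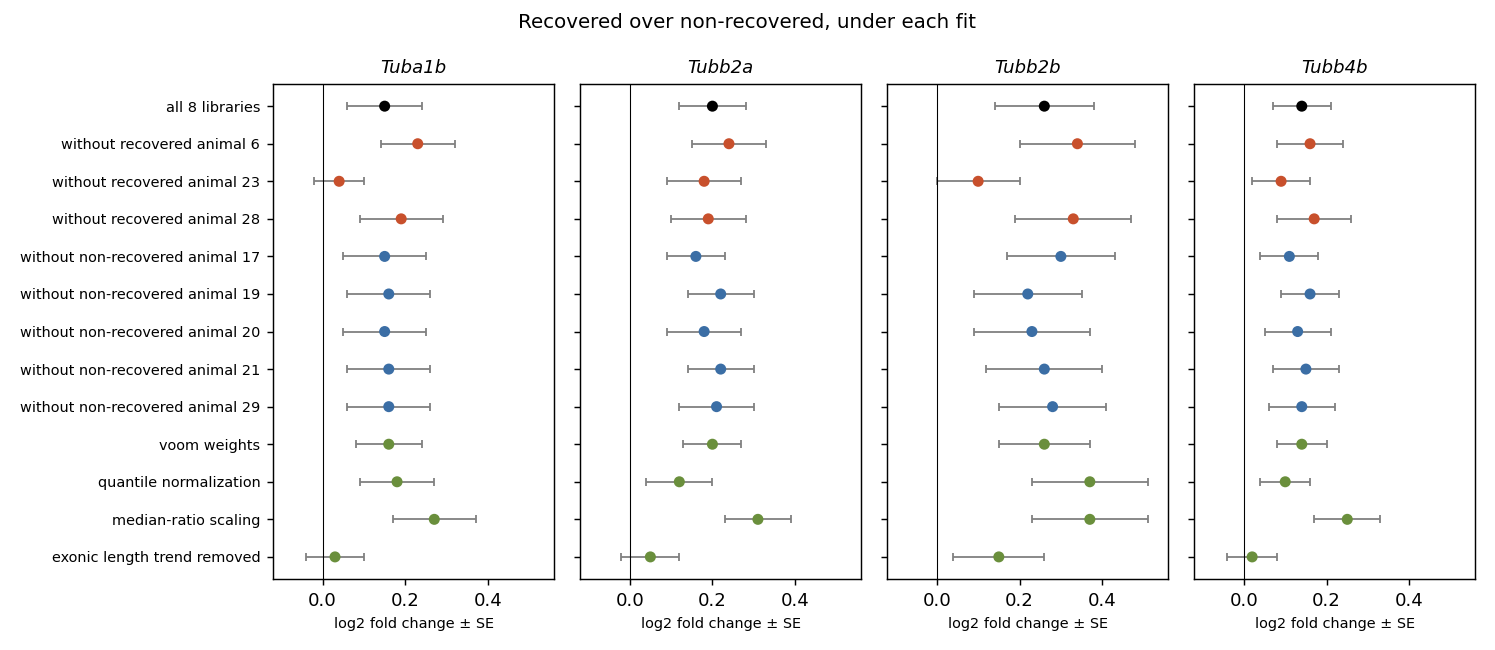
Points give the log2 fold change, recovered over non-recovered, of each tubulin gene under each fit, with bars for the limma SE. Black is the fit of all 8 libraries, red and blue leave out a recovered or non-recovered animal, and green changes the processing. Leaving out animal 23 lowers Tuba1b to 0.04 and Tubb2b to 0.10, and removing the length trend leaves 0.02 to 0.15.

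Exonic length moved with the group difference in this table, and it is short for the tubulin genes. The exonic length, counting every base in any annotated exon, was 1610 nt for Tubb2a, 1875 for Tuba1b, 2088 for Tubb4b and 2294 for Tubb2b, against a median of 5236 nt over 415 listed genes with a length. Across those genes, which are not independent replicates, the log2 fold change was lower by 0.09 per doubling of length (slope -0.09, and -0.06 without animal 23). The relation was loose, with a Pearson r of -0.29 between log2 fold change and log2 length. In single libraries, the deviation of log2 CPM from each gene's mean had a slope of -0.02, -0.11 and -0.04 per doubling in recovered animals 6, 23 and 28, and 0.02 to 0.04 in non-recovered animals. The mean deviation of the 4 tubulin genes was 0.01, 0.29 and 0.06 in recovered animals 6, 23 and 28, and -0.14 to -0.03 in non-recovered ones. The animals with the most negative slope were those with the most tubulin RNA. Both values are deviations from means over the same libraries, and the tubulin genes are among the genes fitted. The listed genes already differ between these groups, so the slope and the tubulin level are not independent of each other. With each library's length trend removed, the log2 fold changes were 0.05 ± 0.07 for Tubb2a, 0.15 ± 0.11 for Tubb2b, 0.03 ± 0.07 for Tuba1b and 0.02 ± 0.06 for Tubb4b (SE), and the limma adjusted p was 0.541, 0.258, 0.742 and 0.749 in that order. The slopes themselves differ with the group, so this removal also takes out whatever part of the group difference runs along with length. Whether length has a part in the tubulin values was not tested.

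**Figure D4:**
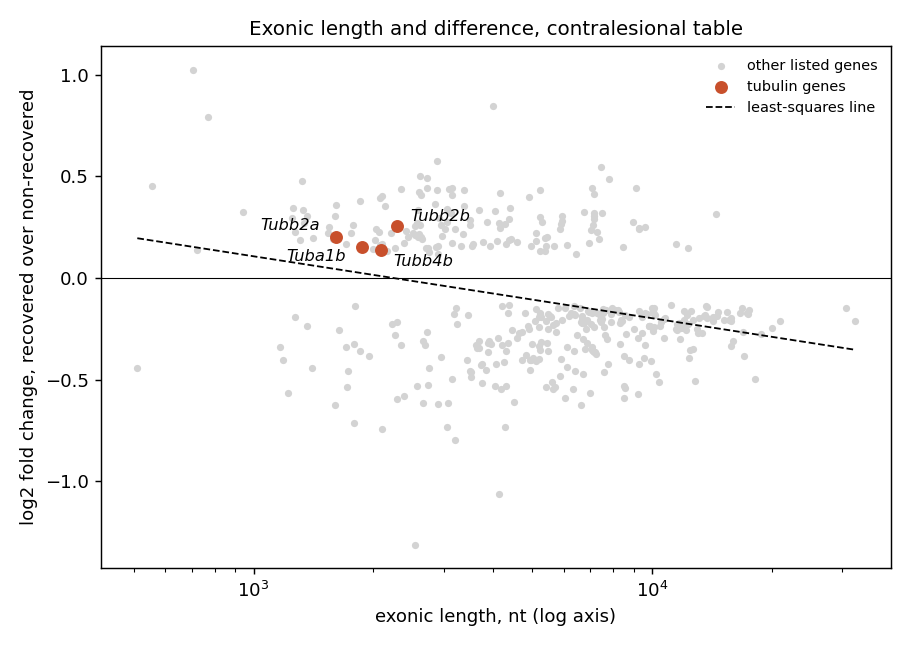
Each point is a gene of the contralesional table, with exonic length in nt on a log axis and the log2 fold change, recovered over non-recovered, on the vertical axis. The 4 tubulin genes (red) lie at 1610 to 2294 nt, above the dashed least-squares line, which has a slope of -0.09 per doubling.

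**Figure D5:**
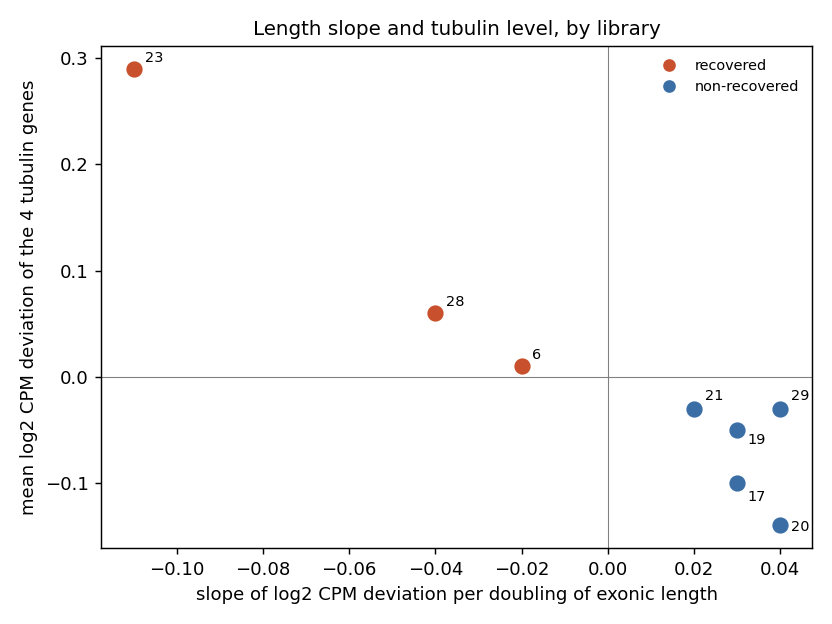
Each point is a contralesional library, labelled by animal, with its slope of log2 CPM deviation per doubling of exonic length (horizontal) and the mean log2 CPM deviation of the 4 tubulin genes (vertical). Recovered animal 23 lies farthest out at -0.11 and 0.29, recovered animals 6 and 28 at slopes of -0.02 and -0.04, and all non-recovered animals at positive slopes and negative deviations.

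How closely the members varied together within groups differed between pairs. Over the 8 libraries, as deviations from each group's mean, Tubb2a and Tubb4b had a Pearson r of 0.79 and 0.84 without animal 23. Tuba1b and Tubb2a had 0.43, and 0.77 without animal 23. Tuba1b and Tubb4b had 0.65, and 0.36 without that animal. The pairs with Tubb2b were lower or rested on animal 23. Tuba1b and Tubb2b had 0.80, which was 0.02 without animal 23. Tubb4b and Tubb2b had 0.19, and -0.66 without it. Tubb2a and Tubb2b had -0.00, and -0.36 without animal 23. These correlations rest on 8 libraries that share their scaling, and for the class II pair on reads that could be given to either gene. The Tubb2a and Tubb2b values of non-recovered animal 17 lay at opposite ends of their group, with the lowest Tubb2a and the highest Tubb2b.

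Other listed genes were compared with the members' mean deviation in the same way. The most like were Dbndd1 (r = 0.94), Cyp51, an enzyme of cholesterol synthesis (0.92), Rab27a, a GTPase of vesicle transport (0.86), the cilia gene Cfap65 (0.85) and Ndufb8, a subunit of respiratory complex I (0.85), each over 8 libraries. Without animal 23 these were 0.76, 0.85, 0.56, 0.41 and -0.13 in the same order. Their log2 fold changes were 0.19 ± 0.09 for Dbndd1, 0.19 ± 0.10 for Cyp51, -0.32 ± 0.09 for Rab27a, 0.49 ± 0.11 for Cfap65 and 0.17 ± 0.09 for Ndufb8 (SE). Of the 5, Cfap65 alone had a limma adjusted p under 0.05 (0.0469), and it had only 23 to 47 reads per library.

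The rest of the microtubule system was thinly represented. Of 61 genes on the list of microtubule-associated and severing proteins, 4 were in the table, with 0 passing in either direction and a median log2 fold change of -0.15. Camsap3, which binds the minus ends of microtubules, had 4.89 ± 0.04 log2 CPM in recovered (SD, n = 3) and 4.73 ± 0.03 in non-recovered animals (SD, n = 5; 0.16 ± 0.06, limma adjusted p = 0.0576). Map7, a microtubule-binding partner of kinesin, had 5.97 ± 0.04 and 6.12 ± 0.03 in the same groups (-0.14 ± 0.06, limma adjusted p = 0.0590). Mtus1, a microtubule-associated protein, had 5.30 ± 0.06 and 5.47 ± 0.07 (-0.16 ± 0.07, limma adjusted p = 0.0618). Dcx, the doublecortin gene of migrating neurons, had 4.41 ± 0.34 and 4.75 ± 0.17 (-0.35 ± 0.15, limma adjusted p = 0.0660), and its lowest value, 4.11, was in animal 23. The exonic lengths of these genes, 6119 to 12647 nt, exceeded those of the tubulin genes.

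No listed gene came from 23 tubulin folding factors and chaperones, 29 tubulin-modifying enzymes, 22 partners of gamma-tubulin or the kinesins. Of the dyneins, the axonemal heavy chain gene Dnah1 was listed (-0.27 ± 0.11, limma adjusted p = 0.0613). Of 23 actin and neurofilament genes, Arpc3, a subunit of the actin-nucleating Arp2/3 complex, was listed (0.13 ± 0.06, limma adjusted p = 0.0839). Defining markers of neurons, oligodendrocytes, astrocytes, microglia and endothelium were absent from the table's selection (0 of 6, 7, 6, 7 and 5), so neither the tissue label nor the cell types behind the tubulin reads could be checked in these values. Of 4 markers of newborn and migrating neurons, Dcx and Sox11 were listed. Their summed level was 27.3 to 38.1 CPM in recovered and 35.2 to 45.5 CPM in non-recovered animals, and lowest, 27.3, in animal 23. Beta-globin genes, 2 of 5 blood markers, summed to 6.27 to 12.4 CPM in recovered and 3.01 to 6.85 CPM in non-recovered animals. Of 10 striatal projection neuron markers, 6 were listed, with 1 past the threshold, Gpr6 (-0.71 ± 0.18, limma adjusted p = 0.0469). All 6 had lower means in recovered animals, and their summed level was 120 to 129 CPM in recovered and 142 to 190 CPM in non-recovered animals. Of 8 mural and fibroblast markers, Mgp was listed and was lower in recovered animals, at 9.63 to 11.3 CPM against 12.8 to 15.6 CPM in non-recovered animals. Of 5 ependymal markers, Cfap65 was listed and was higher in recovered animals, at 1.32 to 1.84 CPM against 0.98 to 1.12 CPM in non-recovered animals. These levels rest on 23 to 47 reads per library. The part of these cell types in the tubulin values was not tested.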

How the data were processed

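Messenger RNA libraries of contralesional motor cortex were compared between 3 recovered and 5 non-recovered mice. Per the submitters' processing notes, the tools were STAR 2.5.1b, Trimmomatic 0.38, bcl2fastq and edgeR and the build was mm10, with no role given. The authors deposited log2 CPM per library for selected genes, by a selection rule that is not given in the sources used here. From those values, whole reads were recovered, assuming a prior count of 2 (100% of values whole within 0.01). The totals behind the scaling, 18.0 to 27.9 M reads per library, may include a normalization factor. Levels were compared within the contralesional table only.

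The main test was limma (version 3.58.1, R 4.3.3) fitted without filter or covariate to the log2 CPM that the authors deposited, with Benjamini-Hochberg adjustment over all 417 listed genes. Because the table holds only genes with a difference between groups, these adjusted p-values can be smaller than over all genes. The fit was tested on simulated data. Single genes also had an exact permutation test over libraries. Coordinates, lengths and transcripts came from GENCODE M21 (GRCm38, the assembly of mm10), which matched 415 of 417 symbols, and promoters from RefSeq (GRCm38.p6). Named genes are every member, the 5 listed genes whose within-group pattern was most like the members' mean, and listed members of the microtubule, cytoskeleton and marker lists. The members and lists were chosen with earlier results of these data known. Alternatives were other pseudocounts, voom, other scalings, a filter on low values, removal of the length trend, adjustment over all protein-coding genes and leaving out each library.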

Additional observations from a re-analysis of the deposited data

How the results depend on the processing

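All 4 tubulin genes kept a higher mean in recovered animals under every alternative run, and with all 8 libraries and the authors' scaling none passed. Scaling by the median ratio of listed genes shifted the median log2 fold change of all listed genes by 0.11, to -0.08. It raised the number of members past the adjusted threshold from 0 to 2 (Tubb2a, 0.31, limma adjusted p = 0.0257; Tubb4b, 0.25, limma adjusted p = 0.0376), while 154 of 417 listed genes passed under it, 130 of them higher in recovered animals. Leaving out a library gave 0 members in each case, as did the other alternatives. Median-ratio scaling and quantile normalization were computed over the selected listed genes only, which mostly had lower means in recovered animals. Over the alternatives, the log2 fold change ranged from 0.05 to 0.31 for Tubb2a, 0.10 to 0.37 for Tubb2b, 0.03 to 0.27 for Tuba1b and 0.02 to 0.25 for Tubb4b.

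The count over all listed genes, 33 (8 higher, 25 lower), depended on the processing. It was 3 on log2(CPM + 1), 0 with voom, 0 adjusted over 21951 annotated protein-coding genes, 77 after quantile normalization (70 higher, 7 lower), 154 with median-ratio scaling (130 higher, 24 lower) and 72 with the length trend removed (20 higher, 52 lower). With a library left out it ranged from 0 (animal 17) to 74 (animal 29), with 1 for animal 20, 3 for 19, 6 for 28, 10 for 21, 16 for 23 and 58 for 6. The cause was not tested. No paired analysis was possible because the recovered and non-recovered animals share no animal numbers, and no tubulin gene is in the ipsilesional table. The description codes of recovered and non-recovered animals share their second field in 1 pair only (28 and 29).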

Other observations

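The share of Tubb2b in the reads of Tubb2a and Tubb2b together was 19.9, 24.2 and 19.0% in recovered animals 6, 23 and 28, against 24.0, 17.9, 20.0, 19.4 and 20.9% in non-recovered animals 17, 19, 20, 21 and 29. The means were 21.1 ± 2.79% in recovered (SD, n = 3) and 20.4 ± 2.28% in non-recovered animals (SD, n = 5), a smaller difference than the spread in either group. Recovered animal 23 (95% Wilson interval 23.4 to 25.1%) and non-recovered animal 17 (23 to 25%) stood above the other libraries, whose intervals ended at 21.8% or lower. The intervals cover counting error only. The part of reads that match both genes was not tested.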
